A study of Drosophila melanogaster with 6 samples.

Results

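Hsp83 is the cytosolic Hsp90 of the fly. Its level and that of 9 genes that work with it or with the heat shock response were compared between exercised and control Drosophila larvae. The tissue was body wall muscle at the end of an acute bout of exercise. The genes were chosen by name from the known machinery, with earlier results of these data known, so their share of calls is a description. They are the Hsp90 partners Stip1, Cdc37 and unc-45, the J domain genes DnaJ-1 and Droj2, the Hsp70 cofactors Hsp110 and stv, the heat shock factor gene Hsf and the noncoding heat shock gene lncRNA:Hsromega. All 10 were among the 17477 genes of the count table, and all 10 had enough reads to be tested.

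Exercise was imposed with light. The genotype of exercised larvae was OK6-Gal4bc/+ with UAS-CsChrimbc/+, so that a light-gated cation channel sat in the cells where OK6-Gal4 is active, which are motor neurons and some CCAP neurons, and pulses of light made the body wall muscles contract. Control larvae were w1118 and carried neither transgene. Both groups were larvae of the third instar and of mixed sex, spent the night on food with all-trans retinal, the cofactor of the channel, and received 2 h of pulsed light, and both transgenic lines had been backcrossed to w1118. PolyA-selected RNA of dissected body wall preparations was sequenced as 3 libraries per group. No control carried the transgenes at rest, so exercise and genotype cannot be told apart. The larvae or pools behind the libraries are not described beyond being independent biological replicates.

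Hsp90 is an abundant ATP-dependent chaperone that takes late folding intermediates, many of them kinases and signaling proteins, from Hsp70. Stip1 (Hop) bridges both chaperones, Cdc37 brings kinases, and unc-45 serves the folding of the myosin motor. J domain proteins deliver clients to Hsp70 and start its ATP cycle, while Hsp110 and the BAG domain protein starvin (stv) release its nucleotide. In resting cells Hsp90 and Hsp70 hold Hsf in check, and when unfolded proteins engage them Hsf trimerizes and switches on heat shock genes, among them Hsp83, DnaJ-1 and lncRNA:Hsromega.

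Libraries held 19625425 to 23953341 counts. The muscle genes Mhc, Act57B, Mlc2, up, Tm2, bt, sls and Actn summed to 128570 to 144177 CPM (counts per 1000000 counts of the TMM-scaled library) in control libraries and 129160 to 141629 CPM in exercised ones, and 0 of these 8 passed the test in either direction (0 also at an unadjusted p under 0.05 and by DESeq2 or limma-voom), so the defining markers of the labelled tissue were abundant in both groups. Without exercised 1, sls passed as higher (adjusted p = 0.0479). Of 7 fat body markers, 2 passed as higher in exercised larvae (Lsp1gamma and Fbp1) and 5 did not pass. The sum of the 7 was 414 to 3612 CPM in control libraries, with control 3 the highest, and 5041 to 6735 CPM in exercised ones. Much of that sum in exercised libraries was Lsp1gamma, at 1.78 to 2.54 CPM in control and 1654 to 2408 CPM in exercised libraries. In control 3, Lsp1alpha (1127 CPM) and Lsp1beta (1902 CPM) lay within their exercised ranges (1102 to 1276 and 1759 to 2417 CPM), but Lsp1gamma did not (1.78 CPM). Without control 3, Lsp1alpha, Lsp1beta and apolpp passed as well (log2 fold changes, log2FC, of 3.02, 3.16 and 2.72), and Lsp2 passed without control 2 (1.61). Of 6 hemocyte markers, 2 passed as higher (NimC1 and PPO1), with sums of 639 to 1143 CPM in control and 1158 to 1545 CPM in exercised libraries, while Hml, He and eater had log2FC values of -0.45, -0.22 and -0.51 and did not pass (eater passed as lower without exercised 2, adjusted p = 0.0308). Of 5 tracheal markers, 2 passed as higher (serp and pio), with sums of 3586 to 4041 CPM and 4048 to 5347 CPM. The calls of serp and pio were lost without control 2 or exercised 3, and that of PPO1 without control 2 or any 1 exercised library (adjusted p up to 0.0683, 0.0923 and 0.0681), while verm passed as higher without exercised 2 (adjusted p = 0.0142). Of 5 neuronal markers 0 passed (0 also without adjustment and by DESeq2 or limma-voom), with sums of 58.6 to 64.6 CPM and 45.8 to 66.7 CPM, and the sum of 6 midgut markers stayed below 1 CPM in every library, with alphaTry and Jon99Ciii at 0 counts. Of the neuronal markers, nSyb passed as lower without exercised 3 (adjusted p = 0.0234). The white gene w, mutant in w1118 and a common transgene marker, was at 0.0457 to 0.0819 CPM in control libraries and at 115, 40.9 and 101 CPM in exercised 1, 2 and 3. The male-specific RNA roX1 was at 79.4 to 160.3 CPM in control libraries and at 56.2, 4.03 and 4.74 CPM in exercised 1, 2 and 3 (adjusted p = 0.203). The male-specific RNA roX2 was at 2.47 to 4.92 CPM in control libraries and at 1.34, 0.155 and 0 CPM in exercised 1, 2 and 3 (adjusted p = 0.0987). For both RNAs every exercised library lay below every control library, so the sex ratio may differ between the groups. The part of cell makeup, sex ratio and genotype in the results that follow was not tested, and in bulk RNA more cells of a type and more RNA per cell cannot be told apart.

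Of the 10 genes, 8 were higher in exercised larvae, 0 were lower and 2 (Cdc37 and Hsf) did not pass, at an adjusted p under 0.05 from edgeR's quasi-likelihood test. None was lower at an unadjusted p under 0.05 or with DESeq2 or limma-voom either, and all 10 were higher at an unadjusted p under 0.05. Over all 9127 genes tested, 10.3% were higher (936 genes) and 8.52% were lower (778 genes). In 9 of the 10 every exercised library lay above every control library, against 19.8% of all tested genes. The median log2 fold change of the 10 was 1.02, beside -0.01 for all tested genes, and 5 of the 10 changed at least 2-fold. Together the 10 genes took 0.106 to 0.115% of the counts in control libraries and 0.271 to 0.425% in exercised ones. Hsp83 alone took 0.0369 to 0.0441% and 0.111 to 0.232% of the counts.

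**Figure D1:**
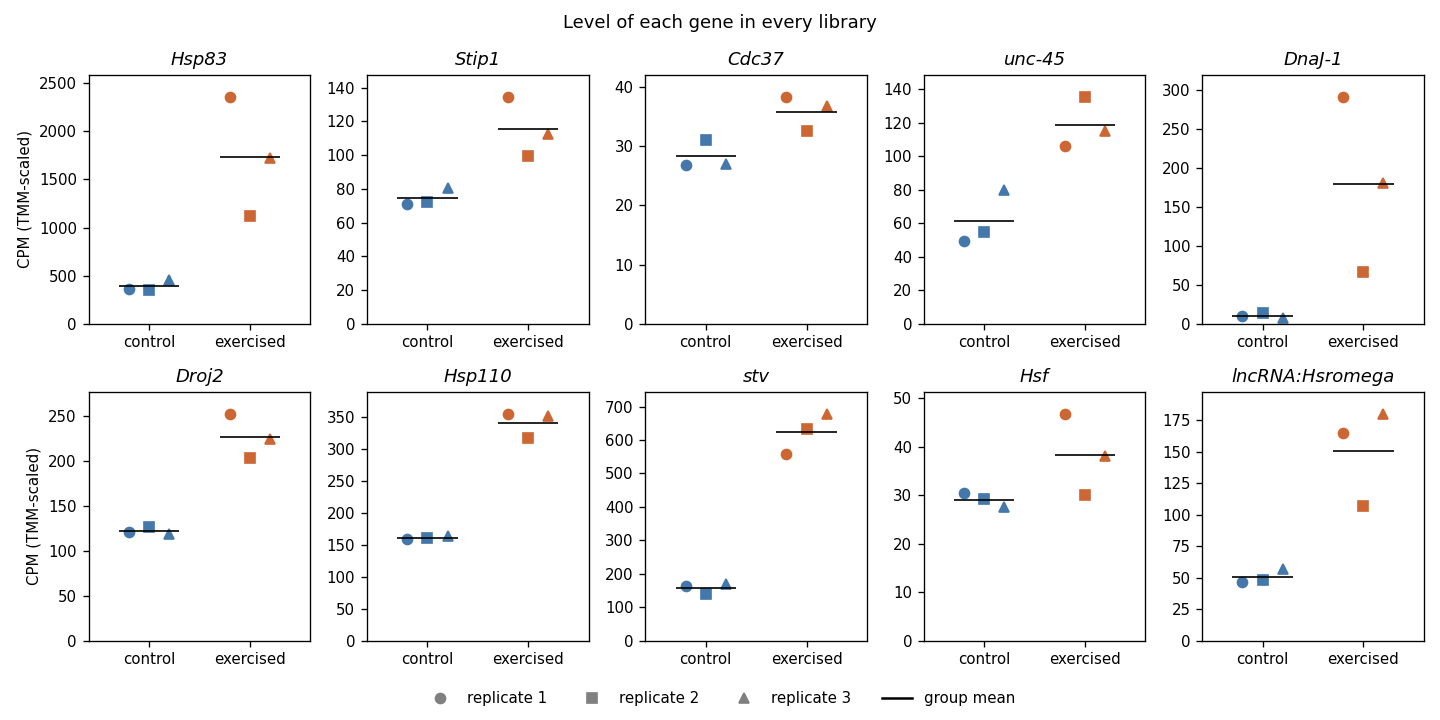
CPM of each of the 10 genes (y axis, from 0, each panel with its own scale) in the 3 control and 3 exercised libraries, with the replicate number as symbol and the group mean as a line. The groups are apart in every panel except that of Hsf, where exercised 2 (30.1 CPM) lies below control 1 (30.4 CPM).

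Hsp83 was the gene with the most reads among the 10 in every library. It lies on chromosome 3L at 3192969 to 3197059, plus strand (FBgn0001233, release 6 of the genome, as for the other positions). It was at 362, 350 and 452 CPM in control libraries 1 to 3 and at 2352, 1121 and 1725 CPM in exercised 1, 2 and 3. The groups did not overlap, the lowest exercised library being 2.48 times the highest control. The means were 388 ± 56.1 CPM (SD, n = 3) and 1733 ± 615 CPM (SD, n = 3), a 4.46-fold difference with a log2FC of 2.16 (standard error, SE, 0.29, adjusted p = 0.00552). It passed with each library left out in turn, with adjusted p up to 0.0322. CG14966, on the opposite strand, shares 15 exon bases with Hsp83 and had a log2FC of -0.21 (adjusted p = 0.252) from 739 control and 583 exercised counts.

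The 3 Hsp90 partners among the 10 had smaller differences than Hsp83. Stip1 (FBgn0024352, 2L, 295122 to 297449) was at 71.0, 72.1 and 80.2 CPM in control libraries and at 134, 99.4 and 113 CPM in exercised 1, 2 and 3, again with no overlap. Its log2FC was 0.63 (SE 0.12, adjusted p = 0.0103), a 1.55-fold difference. It passed with each library left out in turn (adjusted p up to 0.0462), but a test against a change of 1.5-fold did not pass (adjusted p = 0.975).

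The myosin chaperone gene unc-45 (FBgn0010812, 3R, 8033301 to 8037403) was at 49.7, 54.8 and 79.9 CPM in control libraries and at 106, 135 and 115 CPM in exercised ones. The control libraries were spread, with control 3 above the other two, yet all lay under the lowest exercised library. The log2FC of unc-45 was 0.95 (SE 0.19, adjusted p = 0.0155). It no longer passed without control 2 (adjusted p = 0.0567) or without exercised 3 (adjusted p = 0.0521). Without control 3 the log2FC of unc-45 was 1.20 (adjusted p = 0.00315). Control 3 was the highest control library for 6 of the 10 genes and for 38.9% of all tested genes.

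Cdc37, the kinase-specific partner (FBgn0011573, 3L, 1795392 to 1797307), was at 26.8, 31.1 and 27.0 CPM in control libraries and at 38.2, 32.5 and 36.8 CPM in exercised ones. The groups were apart by a narrow gap, exercised 2 being 1.05 times control 2. Its log2FC of 0.34 (SE 0.10) did not pass (adjusted p = 0.0513), and it passed without exercised 2 (adjusted p = 0.0307) and with DESeq2 (adjusted p = 0.0378). The antisense gene asRNA:CR45818 shares 371 exon bases with Cdc37 and had 0 counts in every library, and CG12020, which shares 3 exon bases on the same strand, had 1 count in all.

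Among the myosin genes whose products unc-45 serves, the main muscle form did not pass. Mhc, the muscle myosin heavy chain, averaged 39017 ± 3487 CPM in control and 38583 ± 2933 CPM in exercised libraries (SD, n = 3), a log2FC of -0.02 (SE 0.09, adjusted p = 0.922). Of 8 myosin heavy chain genes tested, 2 passed as higher, 0 as lower (0 also without adjustment and by DESeq2 or limma-voom) and 6 did not pass, with a median log2FC of 0.04. The shares over all tested genes were 10.3% higher and 8.52% lower. The higher ones were the class I myosins Myo61F, with a log2FC of 1.32 (adjusted p = 0.000238), and Myo31DF, with 1.39 (adjusted p = 0.00926). Myo95E had a log2FC of -0.23 (adjusted p = 0.286) and Myo10A one of 0.10 (adjusted p = 0.457). The listed myosin gene zip was matched to no row of the count table by symbol and was left out. Its reads may stand under an identifier without a symbol.

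The number of Hsp83 reads per partner read was compared within each library, where no scaling between libraries enters. There were 5.11, 4.85 and 5.64 Hsp83 reads per Stip1 read in control libraries and 17.5, 11.3 and 15.3 in exercised ones, a log2 difference of 1.48. Per Cdc37 read there were 13.5, 11.3 and 16.8 Hsp83 reads in control and 61.5, 34.5 and 46.9 in exercised libraries, a log2 difference of 1.76. Per unc-45 read there were 7.30, 6.38 and 5.66 in control and 22.1, 8.30 and 15.0 in exercised libraries, a log2 difference of 1.13. In all 3 ratios each exercised library was above each control library, and exercised 2 was the lowest of the exercised libraries. Each of the 3 comparisons gave p = 0.1 in a two-sided exact permutation test (adjusted over the 3, also 0.1), the smallest value that 3 against 3 libraries allow.

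**Figure D2:**
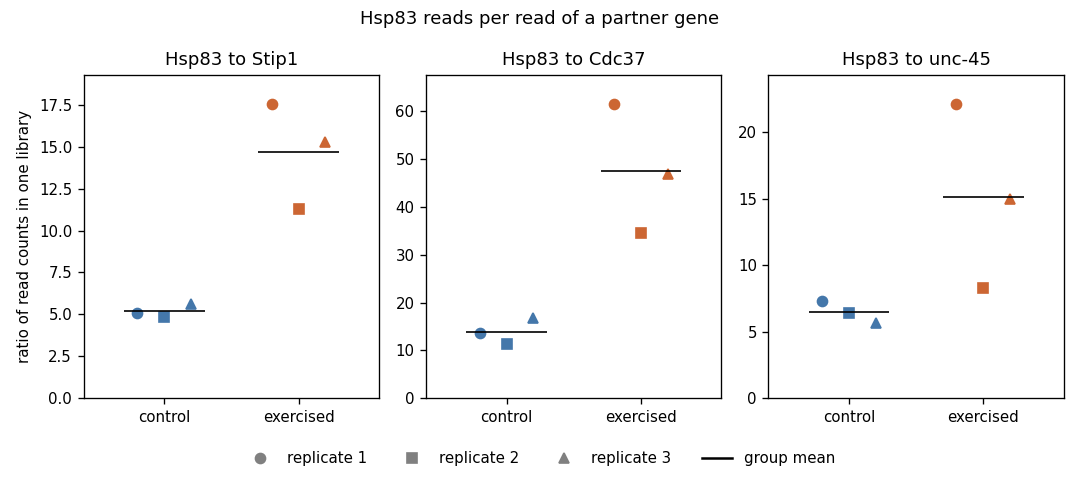
Hsp83 reads per read of Stip1, Cdc37 and unc-45 in each library (y axis, a ratio of counts from 0), with the replicate number as symbol and the group mean as a line. Mean ratios were 5.20, 13.9 and 6.44 in control and 14.7, 47.6 and 15.1 in exercised libraries.

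Of 14 further partners and organelle forms of Hsp90, 2 passed as higher, 1 as lower and 11 did not pass, with a median log2FC of 0.07, which is near the background of 10.3% higher and 8.52% lower over all tested genes. Sgt1, an Hsp90 adaptor, had a log2FC of 0.78 (SE 0.10, adjusted p = 0.00243). The CHORD domain partner mora had one of 0.59 (adjusted p = 0.0137), and it no longer passed without control 1, control 2 or exercised 3 (adjusted p up to 0.0559). STUB1 (CHIP), the ubiquitin ligase that binds both chaperones, had a log2FC of -0.47 (adjusted p = 0.0129), and it no longer passed without control 2 or exercised 3 (adjusted p up to 0.0661). The Hsp90 of the endoplasmic reticulum, Gp93, was at 307, 278 and 309 CPM in control libraries and at 492, 282 and 398 CPM in exercised libraries, with overlap, and did not pass (log2FC 0.39, adjusted p = 0.201). Without exercised 2 Gp93 passed, with a log2FC of 0.58 (adjusted p = 0.0145). The mitochondrial form Trap1 did not pass either (log2FC -0.28, adjusted p = 0.0703).

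The J domain genes among the 10 differed widely in size of change. DnaJ-1 (Hsp40, FBgn0263106, 3L, 5750029 to 5752189, minus strand) had few reads in control larvae, 9.34, 13.9 and 6.81 CPM in control libraries, and was at 290.1, 66.4 and 180.3 CPM in exercised 1, 2 and 3. No library overlapped the other group, but the exercised libraries spread 4.37-fold from lowest to highest. Its log2FC was 4.16 (SE 0.67, adjusted p = 0.0150), a 17.8-fold difference and the largest of the 10. DnaJ-1 no longer passed without control 1 (adjusted p = 0.0775) or without exercised 3 (adjusted p = 0.0604). Its biological coefficient of variation was 0.490, against 0.141 for the median gene.

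Droj2, a DnaJA-type J protein (FBgn0038145, 3R, 13382106 to 13385283), was at 121, 126 and 118 CPM in control libraries and at 252, 204 and 225 CPM in exercised ones. Both groups were tight and far apart, and the log2FC was 0.90 (SE 0.09, adjusted p = 0.00100). The ratio of DnaJ-1 to Droj2 reads was 0.0769, 0.111 and 0.0576 in control libraries and 1.15, 0.326 and 0.802 in exercised ones, so that DnaJ-1 outnumbered Droj2 in exercised 1 alone.

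Against the rest of the J domain family, DnaJ-1 and Droj2 had the first and the third place by log2FC among 29 J domain genes tested. By CPM per kb of exon, DnaJ-1 was in place 23 of 29 in control and in place 3 in exercised libraries, while Droj2 was in place 2 in both groups. Of the other 27, 4 passed as higher, 0 as lower (1 at an unadjusted p under 0.05 or with DESeq2, 0 with limma-voom) and 23 did not pass, with a median log2FC of 0.07. The shares over all tested genes were 10.3% higher and 8.52% lower. CG7130 was at 1.91 ± 0.290 CPM in control and 12.7 ± 2.51 CPM in exercised libraries (SD, n = 3), a log2FC of 2.73 (adjusted p = 0.000238). Tpr2, which carries tetratricopeptide repeats beside its J domain, had a log2FC of 0.54 (adjusted p = 0.00723). CG5001, with the most reads of the family, had one of 0.57 (adjusted p = 0.00895). DnaJ-H had one of 0.46 (adjusted p = 0.0466) and no longer passed without control 2, control 3, exercised 1 or exercised 3 (adjusted p up to 0.160).

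The cofactors that act on the nucleotide of Hsp70 had the 2 smallest adjusted p-values of the 10. Hsp110, also known as Hsc70Cb (FBgn0026418, 3L, 14037019 to 14043686), was at 159, 160.0 and 164 CPM in control libraries and at 355, 317 and 351 CPM in exercised ones. The SD was 1.71% of the mean in control and 6.16% in exercised libraries, and the log2FC was 1.08 (SE 0.08, adjusted p = 0.000238), a 2.11-fold difference. Starvin (stv, FBgn0086708, 3L, 13477541 to 13483515), the fly BAG3 of muscle attachment and chaperone-assisted autophagy, was at 164, 140 and 169 CPM in control libraries and at 559, 634 and 677 CPM in exercised ones. Exercised 1, not 2, was the lowest here, and still 3.31 times the highest control. The log2FC of stv was 1.98 (SE 0.11), a 3.96-fold difference, with the smallest adjusted p of the 10 (6.69e-05).

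Of 6 other Hsp70 cofactors, 1 passed as higher, 0 as lower (0 also without adjustment and by DESeq2 or limma-voom) and 5 did not pass, with a median log2FC of 0.25. The shares over all tested genes were 10.3% higher and 8.52% lower. The higher one was CG10973, the fly relative of the nucleotide exchange factor HspBP1, at 7.29, 7.89 and 8.36 CPM in control libraries and at 17.8, 17.2 and 17.9 CPM in exercised libraries, a log2FC of 1.17 (SE 0.10, adjusted p = 0.000433). The mitochondrial exchange factor Roe1 had a log2FC of 0.44 (adjusted p = 0.0561), and it passed without control 3 (adjusted p = 0.0191) or without exercised 2 (adjusted p = 0.0474). Grp170 and Sil1, both of the endoplasmic reticulum, had log2FC values of 0.24 (adjusted p = 0.235) and 0.27 (adjusted p = 0.523).

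Of 6 proteins that work with stv in chaperone-assisted autophagy, 2 passed as higher, 1 as lower (STUB1, given above) and 3 did not pass, with a median log2FC of 0.43. The shares over all tested genes were 10.3% higher and 8.52% lower. Of the 6, l(2)efl and Hsp67Bc also stand in the list of inducible heat shock genes given below. The autophagy receptor ref(2)P (p62) was at 285, 294 and 292 CPM in control libraries and at 377, 431 and 388 CPM in exercised libraries, a log2FC of 0.46 (adjusted p = 0.00684). The small heat shock protein l(2)efl had a log2FC of 1.38 (adjusted p = 0.0216), and it no longer passed without control 3 or exercised 3 (adjusted p up to 0.0745). Hsp67Bc, the HspB8-like partner of stv, was at 1.02, 0.600 and 0.183 CPM in control libraries and at 16.2, 1.14 and 11.0 CPM in exercised libraries and did not pass (log2FC 3.94, adjusted p = 0.0732). It passed without exercised 2 (adjusted p = 0.00487). The constitutive Hsp70, Hsc70-4, with the most reads of the list, had a log2FC of 0.39 (adjusted p = 0.0884) and passed without control 3 (adjusted p = 0.0277) or without exercised 2 (adjusted p = 0.0463). The client filamin, cher, had one of 0.11 (adjusted p = 0.381).

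**Figure D3:**
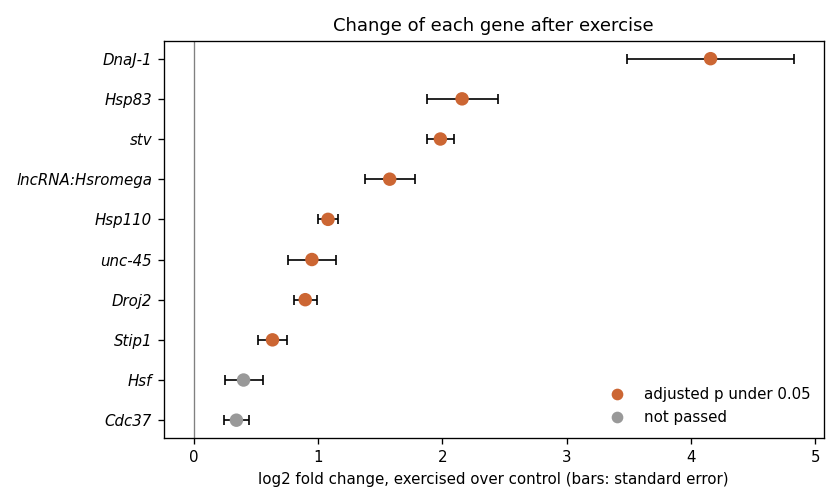
Log2FC of exercised over control for each of the 10 genes (x axis), with the SE derived from the edgeR F statistic as bars and the 8 genes that passed at an adjusted p under 0.05 in orange. DnaJ-1 has the largest change and the widest bar (4.16 with a SE of 0.67), and Hsp110 the narrowest (0.08).

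Hsf itself (FBgn0001222, chromosome arm 2R) did not pass the test. It was at 30.4, 29.1 and 27.5 CPM in control libraries and at 46.7, 30.1 and 38.0 CPM in exercised ones. Exercised 2 lay within the control range, while exercised 1 and 3 lay above it. The log2FC was 0.40 (SE 0.15, adjusted p = 0.112), and without exercised 2 it was 0.55 and passed (adjusted p = 0.0161). The activity of Hsf is set by trimerization and phosphorylation of the protein, which RNA counts do not measure.

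Pausing and elongation factors studied at heat shock genes were taken as a list, with the relative of an Hsf-binding protein. Of these 12 genes, 2 passed as higher (16.7%), 2 as lower and 8 did not pass, with a median log2FC of -0.01. The shares over all tested genes were 10.3% higher and 8.52% lower, and 12 genes are too few to set the shares apart. CycT, the cyclin of the elongation kinase P-TEFb, had a log2FC of 0.38 (adjusted p = 0.0259) and the elongation factor Spt5 one of 0.30 (adjusted p = 0.0299). Trl (GAGA factor), which opens heat shock promoters, had a log2FC of -0.59 (adjusted p = 0.0265), and CG5446, the fly relative of the Hsf-binding protein HSBP1, one of -0.28 (adjusted p = 0.0495). All 4 lost the call when 1 library was left out. CycT lost it without control 1, control 3, exercised 1 or exercised 3 (adjusted p up to 0.114) and Trl without control 2, control 3, exercised 1 or exercised 3 (adjusted p up to 0.0945). Spt5 lost it whichever library other than exercised 2 was left out (adjusted p up to 0.0873), and CG5446 whichever of the 6 was left out (adjusted p up to 0.142). Spt6, with the most reads of the list, had a log2FC of 0.01 (adjusted p = 0.964).

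LncRNA:Hsromega makes the noncoding RNA around which RNA-binding proteins gather in omega speckles during heat shock. The gene (FBgn0001234, 3R, 21296127 to 21317836) was at 46.2, 48.0 and 57.1 CPM in control libraries and at 164, 107 and 180 CPM in exercised ones. Exercised 2 was again the lowest, at 1.87 times the highest control. The log2FC was 1.58 (SE 0.20, adjusted p = 0.00309), a 2.98-fold difference. Its isoforms range from short spliced to long repeat-bearing transcripts, and counts per gene do not separate them.

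Of 6 genes for proteins of the omega speckles, 0 were higher with edgeR (1 at an unadjusted p under 0.05, 1 with DESeq2 and 0 with limma-voom), 1 was lower and 5 did not pass, with a median log2FC of -0.01, against 10.3% higher and 8.52% lower over all tested genes. Pep had a log2FC of -0.32 (adjusted p = 0.0390), and it no longer passed whichever library other than exercised 2 was left out (adjusted p up to 0.138). Hrb98DE had a log2FC of 0.45 (adjusted p = 0.0690) and nonA one of -0.28 (adjusted p = 0.0802), and both passed without exercised 2 (adjusted p = 0.0132 and 0.0292). The hnRNP gene sqd, with the most reads of the list, had one of 0.01 (adjusted p = 0.928).

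Levels of the 9 coding genes were put in order by CPM per kb of exon, which allows genes of different length to be compared. In control libraries the order was Hsp83 (131 CPM per kb), Droj2 (51.4), Hsp110 (43.0), stv (43.0), Stip1 (36.8), Cdc37 (17.5), unc-45 (15.4), Hsf (9.96) and DnaJ-1 (4.64). The neighbours Hsp110 and stv, stv and Stip1, and Cdc37 and unc-45 overlapped over the libraries. In exercised libraries the order was Hsp83 (585 CPM per kb), stv (170), Droj2 (95.6), Hsp110 (90.9), DnaJ-1 (82.8), Stip1 (57.1), unc-45 (29.8), Cdc37 (22.3) and Hsf (13.1). Here Droj2, Hsp110 and DnaJ-1 each overlapped the next gene in the order. Among 8966 tested genes with a known exon length, Hsp83 stood in place 432 in control and 173 in exercised libraries, stv in places 1055 and 368, DnaJ-1 in places 5464 and 660, and Hsf in places 3511 and 2902.

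Exercised 2 had the lowest level among the exercised libraries for 8 of the 10 genes, all but unc-45 and stv. The same held for 36.0% of all tested genes and for 48.4% of the genes called higher. For DnaJ-1 exercised 2 stood at 0.282 of the mean of exercised 1 and 3, for Hsp83 at 0.550, for lncRNA:Hsromega at 0.621 and for Hsf at 0.711. For stv it stood at 1.03 and for unc-45 at 1.22, and the median over all tested genes was 1.00. In exercised 2 the transgene marker w was also the lowest of the exercised libraries, as given above, and so were 4 of 5 tracheal markers, while 0 of 7 fat body, 0 of 6 hemocyte and 0 of 8 muscle markers were lowest there. The part of these measures in the spread was not tested.

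**Figure D4:**
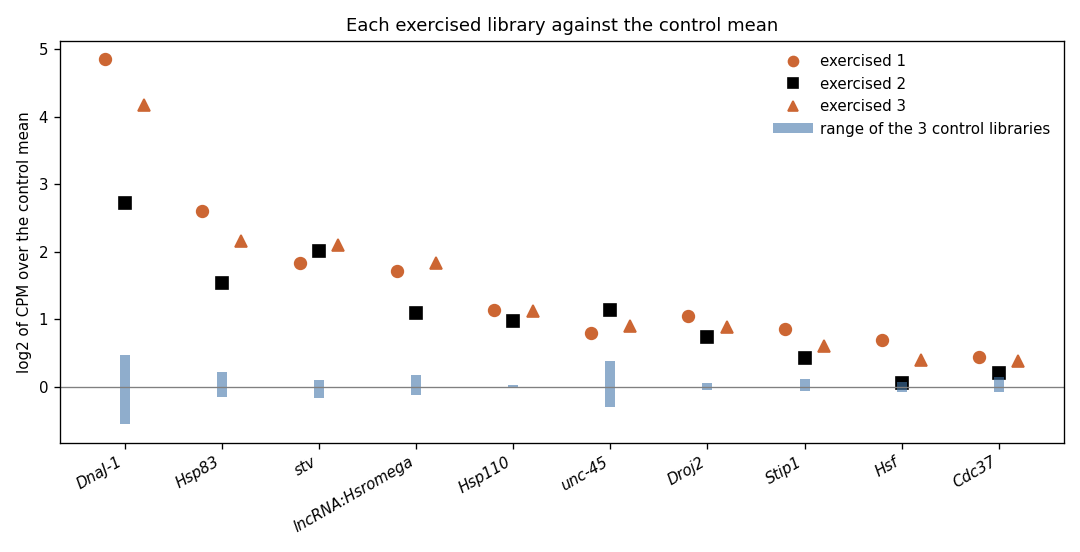
Log2 of the CPM in each exercised library over the control mean (y axis) for the 10 genes, with exercised 2 in black and the range of the 3 control libraries as a blue bar. Exercised 2 is the lowest exercised library except for stv and unc-45, and for Hsf it lies within the control range.

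The genes that lay nearest to 3 of the 10 over the 6 libraries were sought among 6763 genes, by the Euclidean distance of log2 CPM centred on each gene. Since the libraries form 2 groups, this measure rests mainly on the size of the group difference. Hsp83 was closest to puc, a phosphatase that limits JNK signaling (distance 0.29), followed by Spn28Dc, SCaMC and CG9436. Puc was at 23.1, 21.4 and 25.4 CPM in control libraries and at 130.0, 79.4 and 110.0 CPM in exercised libraries. The nearest genes to stv were CG33939, CG1698, spict and CG10337, and those to lncRNA:Hsromega were CG7432, bdg, trbl and Reck. Within the 10, Droj2 and Hsp110 were nearest to each other (distance 0.28), as were Cdc37 and Hsf (0.35). Stip1 was nearest to Droj2 (0.39), unc-45 and lncRNA:Hsromega to Hsp110 (0.62 and 0.75), Hsp83 and stv to lncRNA:Hsromega (0.81 and 0.84) and DnaJ-1 to Hsp83 (2.61).

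The strongly inducible heat shock genes, which share Hsf as activator, were set beside the 10 genes without a test of the difference. In log2FC, l(2)efl (1.38) lay below DnaJ-1, Hsp83, stv and lncRNA:Hsromega. Hsp27 (2.37) and Hsp67Bc (3.94, which did not pass) lay below DnaJ-1 alone. Of 11 tested Hsp68, Hsp70 and small heat shock protein genes, 10 passed as higher, 0 as lower (0 also without adjustment and by DESeq2 or limma-voom) and 1 (Hsp67Bc) did not pass, with a median log2FC of 6.16. The shares over all tested genes were 10.3% higher and 8.52% lower. Hsp70Ab, Hsp70Ba, Hsp70Bb, Hsp70Bbb and Hsp70Bc had 0 to 0.185 CPM in control libraries and were tested only because of their exercised reads. The count and the median rest partly on these copies. Hsp70Ba no longer passed without any 1 control library or without exercised 3 (adjusted p up to 0.154). Hsp27 no longer passed without control 1, control 2, exercised 1 or exercised 3 (adjusted p up to 0.101). With 1 library left out, 7 (without exercised 3) to 11 (without exercised 2) of the list passed as higher. Hsp70Aa, Hsp22, Hsp67Ba and CG4456 had too few counted reads to be tested, and Hsp22 had 0 in every library. How multiply assigned reads were handled is not given, so a count of 0 need not mean that Hsp22 was not expressed. Hsp68 was at 16.3, 13.5 and 13.7 CPM in control libraries and at 1054, 979 and 1087 CPM in exercised ones, a log2FC of 6.16 (SE 0.12, adjusted p = 3.81e-07). The exercised libraries were within 1.11-fold of each other for Hsp68, the tightest of these 11 genes, against 2.10-fold for Hsp83 and 4.37-fold for DnaJ-1. The spread was 1.44-fold for Hsp26, 1.83-fold for l(2)efl, 2.16-fold for Hsp27 and 2.56-fold for Hsp23. It was 2.19-fold to 6.28-fold for the tested Hsp70 copies and 14.2-fold for Hsp67Bc. Exercised 2 was the lowest for 10 of these 11 genes. The exception was l(2)efl, with the most reads of the list, which was highest in exercised 2 (1067, 1953 and 1688 CPM in exercised 1, 2 and 3). Hsp26 was at 7.78 ± 0.296 CPM in control and 342 ± 62.0 CPM in exercised libraries (SD, n = 3), a log2FC of 5.46 (adjusted p = 3.94e-06). The Hsp70 gene copies are nearly identical, so the split of reads among Hsp70Ab, Hsp70Bc and the others is uncertain. Together the list summed to 505 to 763 CPM in control and 2978 to 3537 CPM in exercised libraries.

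**Figure D5:**
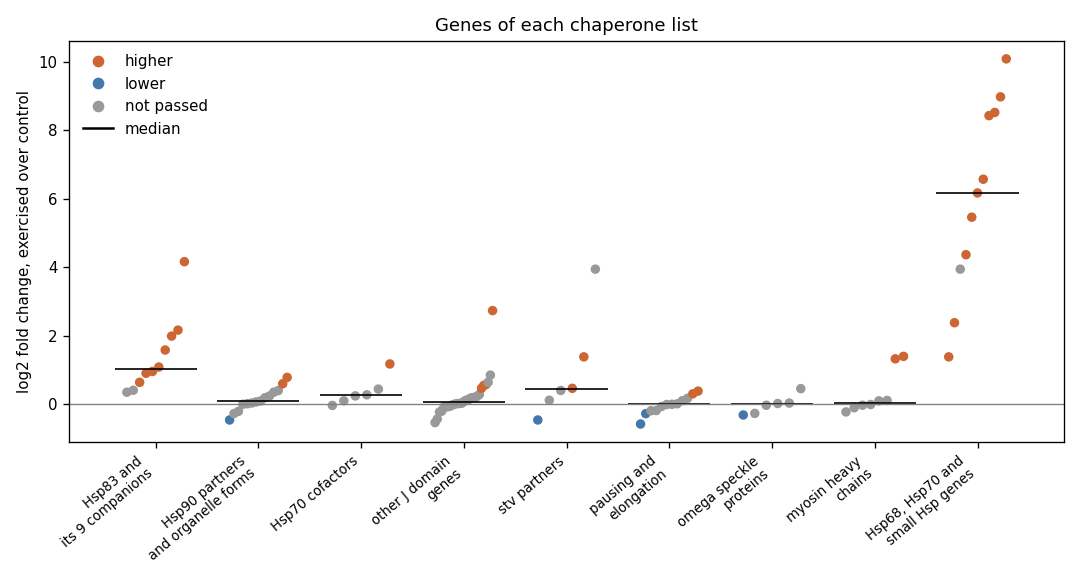
Log2FC of exercised over control (y axis) of each tested gene in the 10 genes and in each list of related genes, with genes that passed as higher in orange, those that passed as lower in blue, the others in grey and the median as a line. The median of the 10 genes is 1.02, that of Hsp68, Hsp70 and small heat shock genes 6.16, and those of the other lists lie between -0.01 and 0.43. The Hsp70 copies shown had 0 to 0.185 CPM in control libraries.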

How the data were processed

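The deposited table held raw read counts per gene for 6 libraries, which the authors made from single-end reads checked with FastQC, aligned to release 6 of the Drosophila genome with STAR and counted with featureCounts. They tested genes with DESeq2. Not given in the sources used here are tool versions, the annotation release, the strandedness and how multiply assigned reads were handled. Without strand, reads of overlapping genes cannot be told apart.

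Gene symbols, positions and exon lengths (the union of exons) came from a release 6 annotation for 17200 of 17477 identifiers and from the study's supplementary table for 5. The symbol unc-45 is 1 of these 5, and its position is that of the same gene under a newer identifier. No symbol was found for 272 identifiers, which held 4.04% of all counts.

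The main analysis used edgeR 4.0.16 in R 4.3.3. The 9127 genes kept by filterByExpr were scaled by TMM, then fitted and tested by quasi-likelihood (glmQLFit with robust=TRUE, glmQLFTest), exercised against control. Condition was the only term, and p-values were adjusted after Benjamini and Hochberg over all genes tested, with a threshold of 0.05. Each SE is the absolute log2FC divided by the square root of the quasi-likelihood F statistic. CPM values are per TMM-scaled library. Distances used log2 CPM with a prior count of 2 over genes that averaged 5 CPM or more. The code was tested on simulated data.

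The 10 genes, the lists and the markers were chosen with earlier results of these data known. Named are all 10 genes, the genes that overlap them, up to 4 genes of each list with the smallest adjusted p and the one with the most reads, and nearest neighbours. Markers, w, roX1 and roX2 stand beside them as checks. The listed genes zip, wupA, para and btl were matched to no row by symbol and were left out, though they may be among the identifiers without a symbol. Alternatives were DESeq2 1.42.0, limma-voom (limma 3.58.1), RLE and upper-quartile factors, leaving out the 20 most abundant genes, no filter and a stricter filter, robust=FALSE, a test against 1.5-fold (glmTreat), a block for the replicate number, leave-one-out fits over the 6 libraries and, added after the data were seen, control 3 and exercised 2 left out together. For ratios they were a pseudocount of 1, pairs of libraries and each library left out.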

Additional observations from a re-analysis of the deposited data

How the results depend on the processing

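The sign of the log2 fold change was positive for each of the 10 genes under all 17 alternatives, and Hsp83, Droj2, Hsp110, stv and lncRNA:Hsromega passed in every one. The number that passed was 6 to 10 with 1 library left out (6 without exercised 3, 10 without exercised 2). With 1 library left out, log2 fold changes lay between 0.30 and 0.42 for Cdc37, 0.82 and 1.20 for unc-45, 3.62 and 4.55 for DnaJ-1 and 0.23 and 0.55 for Hsf. Cdc37 passed with DESeq2 (0.35), RLE factors (0.35), without the 20 most abundant genes (0.36) and without a filter (0.36). Hsf passed with control 3 and exercised 2 left out together (0.51). Against a change of 1.5-fold, Stip1 (0.63) and unc-45 (0.95) did not pass.

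Over all genes, 251 were higher and 128 lower against 1.5-fold, and 773 higher and 1003 lower with upper-quartile factors, which moved the median log2 fold change of all genes to -0.07, in place of 936 and 778. With 1 library left out the counts were 469 to 934 and 358 to 847, the lowest without exercised 3. Of the Hsp90 partners, 0 were higher and 0 lower against 1.5-fold, 2 were lower with upper-quartile factors and 4 higher with control 3 and exercised 2 left out. With 1 library left out, 1 to 3 were higher and 0 to 1 lower. Of the other J domain genes, 1 was higher against 1.5-fold, and 1 was lower with DESeq2, upper-quartile factors or no filter, and 0 to 1 with 1 library left out. Of the counts for the other lists under each alternative, 152 stayed within 1.5 times their main value and 52 did not, among them 5 in place of 10 higher inducible heat shock genes under the stricter filter, which tested fewer of them. The other causes were not tested.

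Same-numbered libraries did not deviate together (correlations of -0.22, 0.00 and -0.24), so the numbers were not taken as pairs. With the replicate number as a block, DnaJ-1 had a log2 fold change of 4.01 and did not pass (adjusted p = 0.0838), and 599 genes were higher and 465 lower. Paired differences of the Hsp83 ratios had the same means, with p = 0.25 in an exact sign-flip test, the smallest that 3 pairs allow.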
